A study of Homo sapiens with 17 samples.

Results

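The zinc finger genes of the short arm of human chromosome 19 were taken as the protein-coding genes whose symbol is ZNF followed by a number and that start below 26000000 on chromosome 19 (GRCh38). The rule gave 83 of the 19970 protein-coding genes on chromosomes 1 to 22 and X. The rule uses name and position alone, although the gene family was singled out with earlier results of these data known. The study used chromatin immunoprecipitation sequencing of A549 cells, an established human lung carcinoma line, and 14 of its 17 samples had a peak list. Untreated wild-type (WT) cells gave 2 libraries each for the transcription factor FOXA1, for trimethylated lysine 9 of histone H3 (H3K9me3) and for trimethylated lysine 27 (H3K27me3). A second A549 line carried A-Fos, a dominant negative inhibitor of AP-1, integrated with piggyBac and induced by doxycycline. The A-Fos line gave 2 libraries each for FOXA1 and for FOSL2 (also called Fra2, a subunit of AP-1) without doxycycline and 2 each after 48 h at 1 µg/mL. Both histone marks were measured in WT cells only, and no WT cells given doxycycline were analysed here, so an effect of A-Fos and an effect of doxycycline cannot be told apart.

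Many ZNF genes of chromosome 19 encode proteins with a KRAB domain and a row of C2H2 zinc fingers. The fingers read DNA, often inside transposable elements, and the KRAB domain recruits TRIM28, which brings SETDB1, the enzyme that writes H3K9me3, and HP1 proteins, which bind the mark. The genes arose by repeated local duplication and stand in clusters of close relatives. ZNF genes are themselves a textbook site of H3K9me3, above all over the 3′ exons that encode the fingers. H3K27me3 is written by Polycomb repressive complex 2 and lies mostly over developmental genes. FOXA1 is a forkhead pioneer factor of endoderm and lung, and AP-1 is a dimer of Jun and Fos family proteins.

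Promoters are shown for 5 genes that mark the ends of what was measured. ZNF557 and ZNF561 had the highest H3K9me3 cover of all 83 genes, and ZNF85 and ZNF100 had none. ZNF91, whose protein represses SVA retrotransposons, was added after its values were seen, as a relative of ZNF85 and ZNF100 whose start lay wholly under the mark. Each sequence runs 5′ to 3′ from 250 bases before to 50 bases after the start in the RefSeq table for GRCh38.p14, with CG pairs in capitals. The positions are chr19:7069453-7069752 (plus strand, ZNF557), chr19:9621183-9621482 (minus strand, ZNF561), chr19:20923001-20923300 (plus strand, ZNF85), chr19:21767530-21767829 (minus strand, ZNF100) and chr19:23395422-23395721 (minus strand, ZNF91).
ZNF557: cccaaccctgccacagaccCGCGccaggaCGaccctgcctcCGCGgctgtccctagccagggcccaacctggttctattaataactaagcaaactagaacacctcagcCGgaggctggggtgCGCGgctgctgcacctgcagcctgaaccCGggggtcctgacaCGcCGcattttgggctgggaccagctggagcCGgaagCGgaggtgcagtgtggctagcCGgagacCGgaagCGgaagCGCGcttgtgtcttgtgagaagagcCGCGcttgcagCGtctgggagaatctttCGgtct
ZNF561: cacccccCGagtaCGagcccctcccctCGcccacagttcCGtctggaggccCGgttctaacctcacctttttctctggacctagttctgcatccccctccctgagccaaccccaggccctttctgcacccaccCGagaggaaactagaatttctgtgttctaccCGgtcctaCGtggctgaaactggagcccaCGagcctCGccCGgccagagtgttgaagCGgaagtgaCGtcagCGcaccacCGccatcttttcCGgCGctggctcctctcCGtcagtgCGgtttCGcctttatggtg
ZNF85: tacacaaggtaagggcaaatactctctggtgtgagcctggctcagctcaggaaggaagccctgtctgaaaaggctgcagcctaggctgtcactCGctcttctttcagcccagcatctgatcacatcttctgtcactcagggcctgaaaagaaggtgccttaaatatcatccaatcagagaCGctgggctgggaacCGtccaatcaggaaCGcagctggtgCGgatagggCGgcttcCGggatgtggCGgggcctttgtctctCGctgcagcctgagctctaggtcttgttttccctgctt
ZNF100: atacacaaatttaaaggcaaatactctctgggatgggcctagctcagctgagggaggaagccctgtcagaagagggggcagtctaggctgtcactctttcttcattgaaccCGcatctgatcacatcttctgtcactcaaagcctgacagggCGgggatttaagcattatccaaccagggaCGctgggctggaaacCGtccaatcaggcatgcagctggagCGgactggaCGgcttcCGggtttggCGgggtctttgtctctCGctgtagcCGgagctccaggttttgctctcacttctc
ZNF91: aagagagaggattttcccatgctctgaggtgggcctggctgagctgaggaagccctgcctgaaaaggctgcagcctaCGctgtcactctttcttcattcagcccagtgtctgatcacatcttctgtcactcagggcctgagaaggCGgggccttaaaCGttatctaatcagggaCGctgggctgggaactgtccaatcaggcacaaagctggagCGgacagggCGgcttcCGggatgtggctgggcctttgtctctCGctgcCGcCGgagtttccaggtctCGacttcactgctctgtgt

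The promoters of ZNF557 and ZNF561 held 22 and 20 CG pairs, and those of ZNF85, ZNF100 and ZNF91 held 9, 10 and 11. No H3K9me3 peak touched the first 4 windows in either library, while the ZNF91 window lay under peaks over 100% of its length in both. Aligned end to end, the ZNF85 promoter had the same base as that of ZNF100 in 81.8% of alignment columns and as that of ZNF91 in 81.1%. ZNF557 against ZNF561 gave 51.3%. The longest run shared by the ZNF85, ZNF100 and ZNF91 promoters was tctgatcacatcttctgtcactca, 24 bases. Of 34961 promoters of all genes in the table, 6 held it on either strand, and they belonged to ZNF85, ZNF100, ZNF91, ZNF208, ZNF675 and ZNF681. Those 6 genes had the lowest and some of the highest H3K9me3 covers of their cluster: ZNF85 and ZNF100 were at 0% in both libraries, and ZNF675 was at 82.2% and 87.5%.

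Peak lists were called per library and held 201740 and 305084 H3K9me3 peaks, 190938 and 228427 H3K27me3 peaks, and 1854 to 80318 peaks of the factors. The lists hold no reads, so depth is unknown and list lengths may differ with it. As a check of the cell label, 4 of 5 epithelial genes (KRT8, KRT18, KRT19 and EPCAM) and all 4 housekeeping genes had under 5% of the body under each mark list, a level that 59.9% of all protein-coding genes share. So did 1 of 5 blood genes (PTPRC), 0 of 4 neuron genes and 1 of 4 muscle genes (MYH3). MYOD1 was the only gene of these lists covered by H3K27me3, at 84.2% and 84.1%. Such short lists bear little on the label, and peak lists do not measure transcripts.

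H3K9me3 lay over most of the short arm ZNF genes. In library 1 the share of the gene body under H3K9me3 peaks ran from 0% to 94.2% with a median of 56.2%, and in library 2 from 0% to 95.5% with a median of 65.7%. Counting a gene as covered when at least 50% of its body lay under peaks in both libraries, 52 of 83 genes (62.7%) were covered by H3K9me3, beside 2.19% of all protein-coding genes. By the mean of both libraries, 22 genes were at 75% or more, 39 between 50% and 75%, 13 between 25% and 50%, 2 between 5% and 25% and 7 below 5%. The libraries ranked the genes alike, with Pearson's r of 0.945 and Spearman's rho of 0.930 across the 83 genes, which are no independent replicates. Library 2 had the higher cover in 67 genes and library 1 in 11, although library 1 had more peaks. Over all protein-coding genes the order was the opposite, with mean covers of 5.08% in library 1 and 4.72% in library 2. A gene body held a median of 16 peaks in library 1 and 9 in library 2, so the cover of most genes was a row of narrow peaks and not a single block. Cover was only weakly related to gene length (r = -0.122, rho = -0.282).

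**Figure D1:**
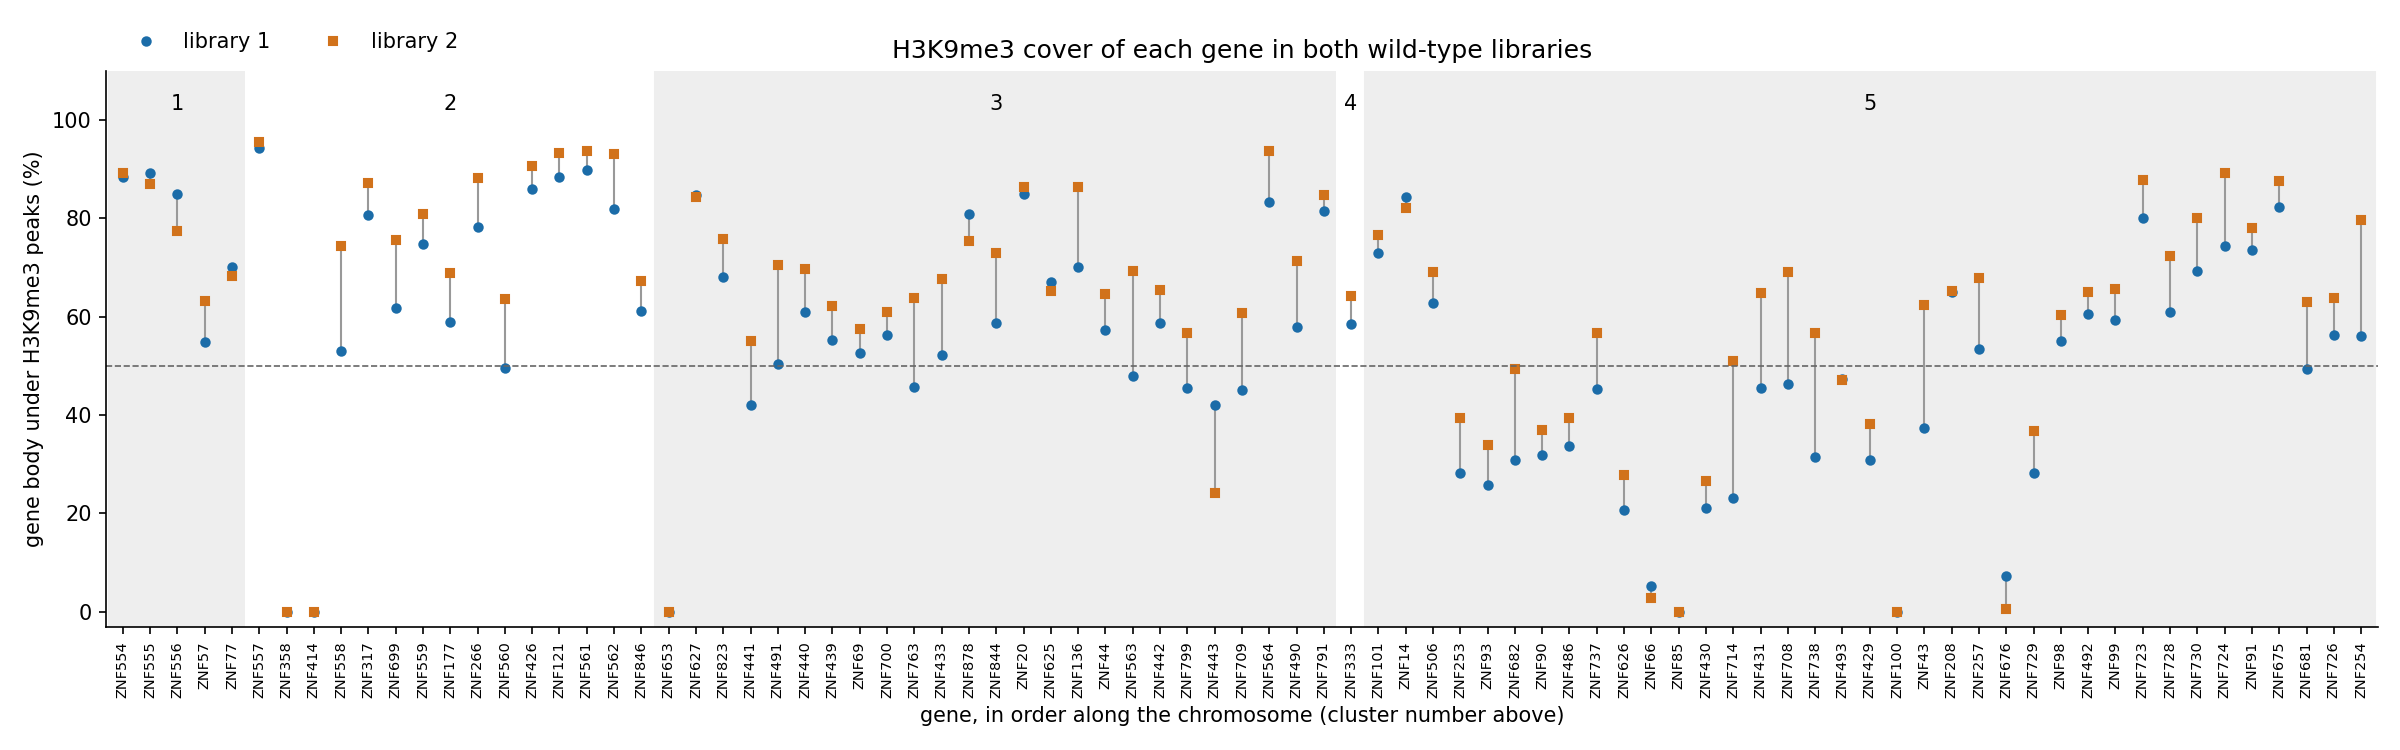
Share of each gene body under H3K9me3 peaks (percent, y axis) for the 83 ZNF genes in their order along the chromosome (x axis), in WT library 1 (circles) and library 2 (squares), joined by a line. The dashed line marks 50%, shading marks the position clusters, 5 genes are at 0% in both libraries, and the genes in the middle of cluster 5 lie lower than those near its end.

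The most covered genes were ZNF557, ZNF561, ZNF121, ZNF554, ZNF564, ZNF426, ZNF555 and ZNF562, each named for a mean cover among the highest 8. ZNF557 had 94.2% and 95.5% in libraries 1 and 2, each time under a single peak that ran over almost the whole body. Its peak had a fold enrichment over background, as the authors' caller gave it, of 8.35 and 11.6. ZNF561 had 89.7% and 93.7%, under 3 peaks and 1 peak. Its neighbours ZNF121 (88.4% and 93.3%), ZNF562 (81.9% and 93.1%) and ZNF426 (86.0% and 90.6%) completed a run of 4 adjoining genes. ZNF554 had 88.4% and 89.1%, and ZNF555, which follows it, had 89.1% and 86.9%. ZNF564 had 83.3% and 93.7%. Of the 8, the libraries differed most at ZNF562, and all stayed far above the 50% limit in both.

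The short arm genes carried less H3K9me3 than the ZNF genes of the rest of the chromosome and more than those elsewhere. The 157 ZNF genes of the rest of chromosome 19 had medians of 86.9% and 90.1%, and 133 of them (84.7%) were covered. The 237 ZNF genes of other chromosomes had medians of 8.48% and 10.5%, with 73 covered (30.8%). Among the 565 other protein-coding genes of the same stretch of chromosome 19 the median was 0% in both libraries, and 3 were covered: the read-through ZNF559-ZNF177, RPSA2 and the olfactory receptor OR10H4. The order of the 4 sets was the same in both libraries, and the sets were not tested against each other.

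**Figure D2:**
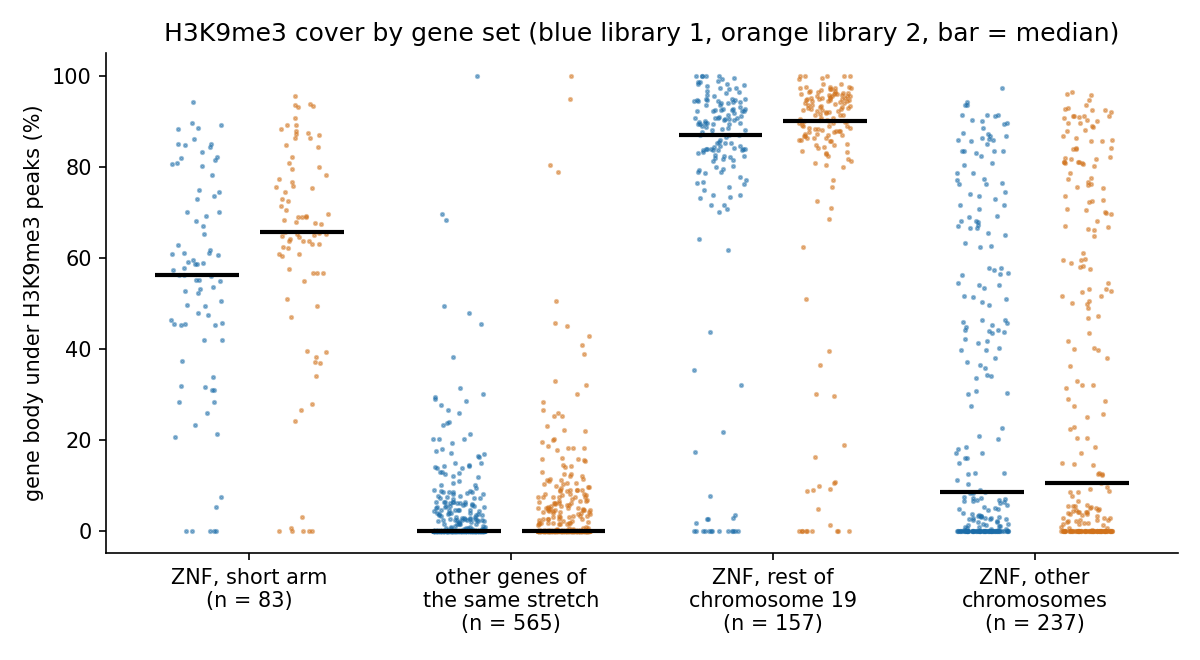
Share of the gene body under H3K9me3 peaks (percent, y axis) for 4 sets of protein-coding genes (x axis), 1 point a gene, with library 1 in blue, library 2 in orange and the median as a bar. The short arm ZNF genes spread from 0% to 95.5% around medians of 56.2% and 65.7%, between the ZNF genes of the rest of the chromosome and those of other chromosomes.

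H3K27me3 was all but absent from the same genes. None of the 83 was covered by it, beside 5.04% of all protein-coding genes, and 81 had no H3K27me3 over the body in either library. The median over all protein-coding genes was also 0% in both libraries. Other ZNF genes were likewise seldom covered by it, 0.637% on the rest of chromosome 19 and 1.27% on other chromosomes. ZNF333 was one exception, with 4.10% in library 1 and 11.9% in library 2, next to H3K9me3 covers of 58.5% and 64.1%. ZNF681 was the other, with 0% and 1.45%, next to H3K9me3 covers of 49.3% and 63.0%. At the ends of genes, library 2 placed H3K27me3 over 26.5% of the 2 kb around the end of ZNF555 and 38.7% of that around the end of ZNF556, where library 1 had none. The median gene had 60.9 percentage points more H3K9me3 than H3K27me3 (SD 6.68 over the H3K9me3 libraries, 0 over the H3K27me3 libraries, n = 2 each). The exact two-sided permutation test over libraries gave p = 0.33, the smallest that 2 against 2 can give. Different antibodies made the lists, so the difference compares lists and not amounts of mark.

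The 83 genes fell into 5 clusters when split where neighbouring starts lay over 1 Mb apart. Cluster 1, ZNF554 to ZNF77, packed 5 genes into 0.125 Mb, and all 5 were covered, with medians of 85.0% and 77.4%. Here the mark did not stop at the genes, since the bases between them lay under peaks over 78.3% and 82.3%. ZNF57 was the lowest of the 5, at 54.9% and 63.1%.

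Cluster 2, ZNF557 to ZNF846, spread 15 genes over 2.72 Mb, with 12 covered and medians of 74.8% and 80.8%. In contrast to cluster 1, the bases between its genes were under peaks over only 13.6% and 15.0%, against 67.3% and 76.8% of the bases in the genes. The cluster also holds 54 other protein-coding genes, of which 34 had no H3K9me3. Its 3 genes outside the covered class were ZNF358 and ZNF414, both at 0%, and ZNF560, at 49.5% and 63.6%, which missed the limit in library 1 alone.

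Cluster 3, ZNF653 to ZNF791, held 25 genes in 1.15 Mb, with 18 covered and medians of 57.3% and 67.6%. Between its genes 44.3% and 53.1% of bases lay under peaks. The 4 highest mean covers were those of ZNF627, ZNF20, ZNF564 and ZNF791. ZNF627 (84.7% and 84.4%) lay near the low-coordinate end of the cluster and ZNF20 (85.0% and 86.4%) inside it. ZNF564 and ZNF791 (81.4% and 84.8%) lay at the high-coordinate end. ZNF443 was the lowest marked gene of the cluster, at 42.0% and 24.2%, and the gene where library 1 exceeded library 2 by most. Some genes of the cluster share bases: ZNF69 overlaps ZNF700 and ZNF763, and ZNF563 overlaps ZNF442, so their covers are not separate measurements. Cluster 4 was ZNF333 alone.

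Cluster 5, ZNF101 to ZNF254, was the largest, with 37 genes over 4.46 Mb. It had 16 covered genes and medians of 46.4% and 62.4%, below those of clusters 1 to 3, and the mark was as frequent between its genes (46.1% and 52.7% of bases) as in them (45% and 54.4%). Cover varied along it. The 6 genes that start between 20 and 21 Mb had medians of 26.2% and 32.4%, and none was covered. ZNF93, whose protein represses LINE-1 elements, starts in the megabase before them and had 25.8% and 34.0%. The 6 genes between 23 and 24 Mb had medians of 71.3% and 79.0%, with 5 covered. That group holds ZNF91, at 73.5% and 78.1% over a body of 90468 bases, ZNF675, whose product restrains signalling through TRAF6, and ZNF724, at 74.3% and 89.1%. Its 1 gene outside the covered class was ZNF681, at 49.3% in library 1.

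Members of 1 cluster are close relatives of each other, and reads that map to several copies are placed or dropped by the aligner's settings, of which the sources used here say nothing. Covers of single genes in cluster 5 and cluster 3 are uncertain to that extent. Its part in the low covers of cluster 5 was not tested.

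Genes with under 5% of the body under peaks in each of the 4 mark lists numbered 5 of 83, where 59.9% of all protein-coding genes had so little. They were ZNF358, ZNF414, ZNF653, ZNF85 and ZNF100, and each was at exactly 0% of both marks in all 4 lists. ZNF66 (5.29% and 2.91%) and ZNF676 (7.31% and 0.496%) came next. The rest of the lists differed around these 7 genes. ZNF358, ZNF414 and ZNF653 stood among other genes in stretches without H3K9me3 of 82.5 kb, 201 kb and 207 kb, in which the other 12 lists had 3, 27 and 30 peaks. ZNF85 and ZNF100 stood in stretches without H3K9me3 of 177 kb and 161 kb, and there the other 12 lists had 0 peaks between them. That is not particular to unmarked genes. Marked genes of cluster 5, among them ZNF506 (62.8% and 69.0% H3K9me3) and ZNF430 (21.1% and 26.5%), also had no factor peak within 50 kb. Neither had H3K27me3 over the body. A stretch without a peak in any of 14 lists does not show whether reads were placed there, which the lists do not record. For ZNF85 and ZNF100 a lack of the mark and a lack of data therefore cannot be told apart. Stretches that reach into ZNF66 (142 kb) and ZNF676 (81.3 kb) likewise held 0 peaks of any list, but the rest of these gene bodies had 4 H3K9me3 peaks in library 1 and 1 in library 2 at ZNF66, and 16 and 1 at ZNF676.

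**Figure D3:**
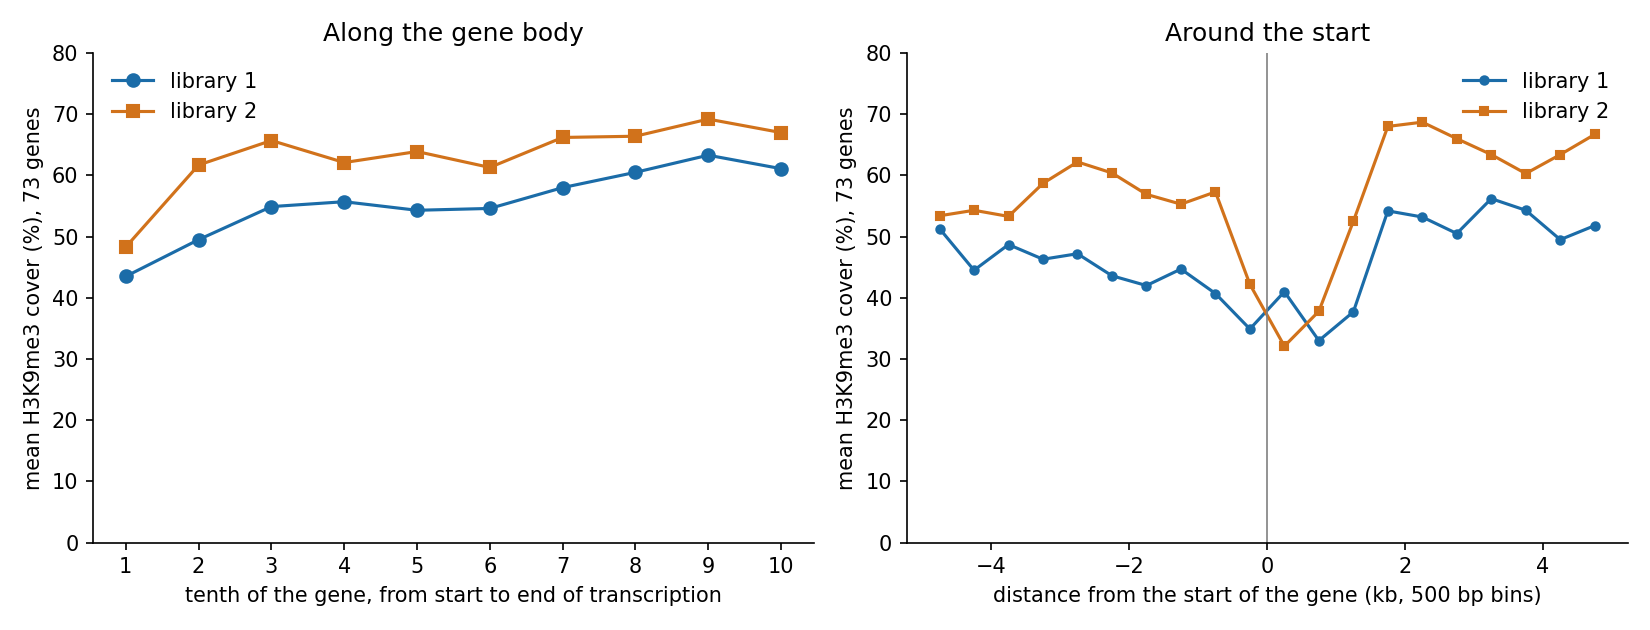
Mean H3K9me3 cover (percent, y axis) of the 73 genes with a known strand, over successive parts of the gene body from start to end, each 10% of its length (left), and over 500 bp bins within 5 kb of the start (right), in both WT libraries. Cover rises from 43.5% to 61.1% in library 1 and from 48.3% to 67.0% in library 2 from the first part to the last, and dips around the start.

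Within genes, the mark thinned out at the start. Strand was known for 73 of the 83 genes. These were read along the gene interval from its 5′ end, called the start here, to its 3′ end. Mean cover rose from 43.5% in the first 10% of the body to 61.1% in the last in library 1, and from 48.3% to 67.0% in library 2. Within 5 kb of the start, the lowest bin lay between 500 and 1000 bases downstream in library 1 (33%) and between 0 and 500 bases downstream in library 2 (32.1%). By 1500 to 2000 bases downstream, cover was back at 54.2% and 68.0%. The downstream 50% of the body exceeded the upstream 50% by 7.92 percentage points on average in library 1 and by 5.70 in library 2, against 0.0965 and 0.211 over all 15812 genes with a strand, most of which had no H3K9me3. Other ZNF genes leaned the same way, by 2.94 and 3.08 on the rest of chromosome 19 and by 6.01 and 4.83 on other chromosomes. It was the higher part in both libraries in 39 genes and the lower part in both in 15.

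The window of 1 kb to either side of the start had a median cover of 25.7% and 38.2%, and the same window around the end had 59.0% and 81.1%. At least 50% of the start window was covered in both libraries in 25 genes (34.2%), beside 1.64% of all genes with a strand. The end window was covered in 41 genes (56.2%), beside 2.75%. Other ZNF genes had the same order of start and end: 55.5% and 78.1% on the rest of chromosome 19, 10.3% and 26.2% on other chromosomes. Among the 73 short arm genes, the start window had no H3K9me3 in either library in 16, and the end window in 6. Taken library by library, the start window had none in 25 and 16 of them. Over all 15812 genes with a strand it had none in 14441 and 14740, so a bare start is the usual state. The window is set at the 5′ end of the gene's whole interval, and some genes have further starts inside it.

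The difference between start and end was seen in clusters 1 to 4, and cluster 5 had the opposite order. In cluster 1 the mean cover was 16.4% and 13% at the start against 91.0% and 93.1% at the end, with all 5 genes higher at the end in both libraries. Cluster 2 gave 17.7% and 26.6% at the start against 68.4% and 75.7% at the end, and none of its 14 stranded genes was higher at the start. Cluster 3 was mixed, with start means of 46.7% and 42.8% and end means of 63.5% and 78.8%. In cluster 5, the 29 stranded genes had means of 44.2% and 56.1% at the start and 34.0% and 41.0% at the end. The start was the higher window in 16 genes in library 1 and 15 in library 2, and the end in 11 and 10. Within the body, the downstream 50% of cluster 5 genes differed from the upstream 50% by -0.394 and -5.02 percentage points. Cluster membership was set by position alone, but the contrast between clusters was noticed in the data and was not tested.

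**Figure D4:**
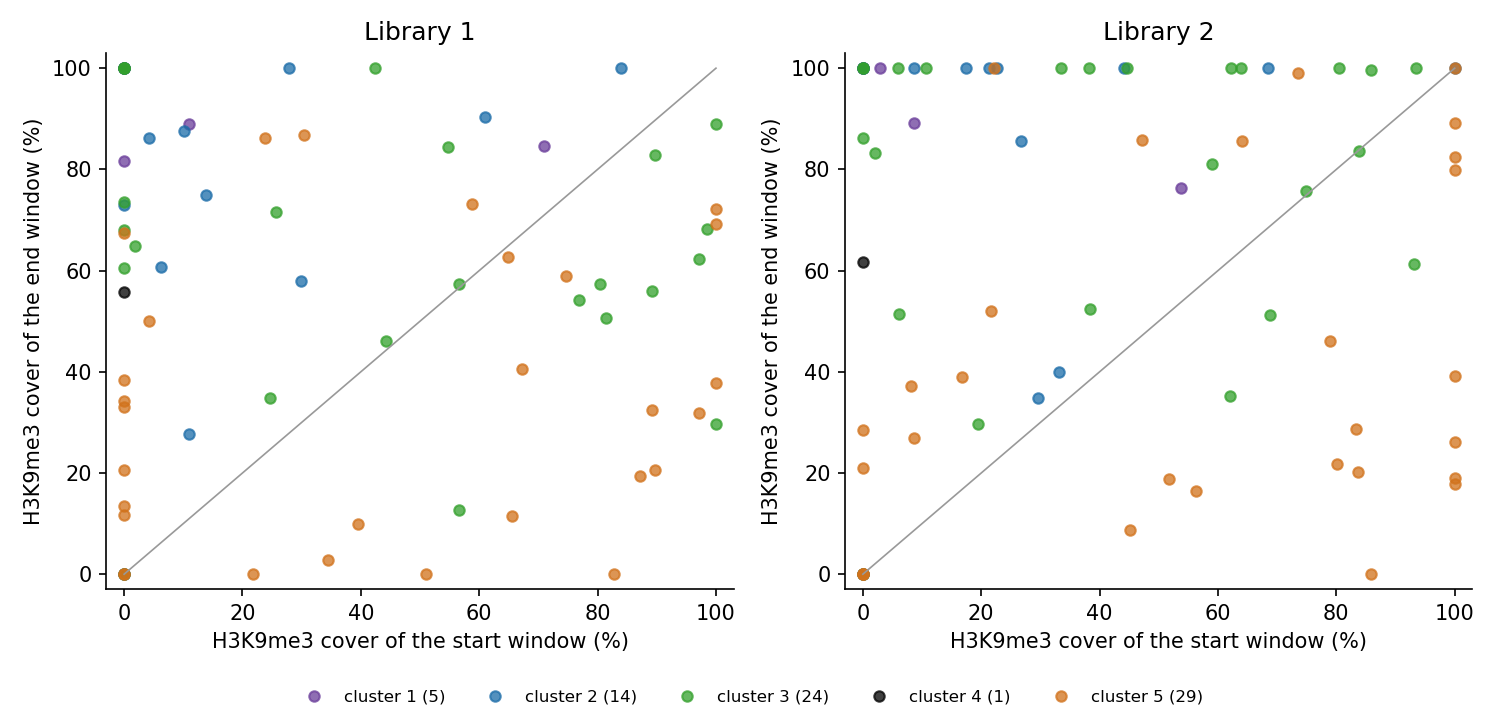
H3K9me3 cover of the 2 kb window around the start (percent, x axis) against that around the end (percent, y axis) for the 73 genes with a strand, coloured by cluster, in library 1 (left) and library 2 (right), with the line of equal cover. Genes of clusters 1 and 2 lie on or above the line, and 16 and 15 genes of cluster 5 lie below it.

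Single genes show both shapes. ZNF554 had no H3K9me3 in its start window and 100% in its end window in both libraries, with 88.4% and 89.1% of the body covered. ZNF627 and ZNF317 had the same 0% and 100%. In all, 8 covered genes had a bare start window in both libraries: ZNF554, ZNF627, ZNF317, ZNF791, ZNF77, ZNF490, ZNF558 and ZNF333. The start window of ZNF558 holds no RefSeq promoter start. A promoter window further inside that gene had 0% in both libraries, and another had 57.3% and 100%. The opposite shape was found in ZNF257, with 89.7% and 100% at the start and 20.6% and 17.9% at the end, and in ZNF726, with 97.2% and 100% against 31.9% and 19.1%. ZNF43 had 82.8% and 85.9% at the start and 0% at the end in both libraries. Its start window holds no RefSeq promoter start, and its promoter window further inside the gene had 100% and 98.3%. ZNF257, ZNF43 and ZNF317 were picked for these shapes after their values were seen.

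RefSeq gave 78 promoter windows of 300 bases for the 73 stranded genes, with a median of 15.5 CG pairs against 21.0 over all 22131 promoters of protein-coding genes. In 31 windows at least 50% lay under H3K9me3 in both libraries, with a median of 12.0 CG pairs. In 40 windows neither library had any, with a median of 18.5. Of all 22131 promoters of protein-coding genes, 287 were covered in this way and 21227 had none in either library. The difference was not seen in cluster 5, where both kinds had a median of 10 (15 and 12 windows). In cluster 3 the medians were 14 in 11 covered windows and 21 in 12 windows at 0. These differences were not tested. ZNF554, bare at the start, had 34. Over the 73 genes, however, the number of CG pairs was only loosely related to the cover of the whole body (r = 0.196, rho = 0.338), as a description across related genes. The pattern TGANTCA, on both strands, was in 2 windows (2.56%, ZNF317 and ZNF564) against 6.15% of all promoters. It is looser than the usual AP-1 site, which has C or G in the middle. The match read tgattca in ZNF317 and tgaatca in ZNF564. The forkhead motif TGTTTAC, read on both strands, was in 1 (1.28%; ZNF699) against 2.85%. A match is a match of letters alone.

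FOXA1 peaks were few near these genes. WT libraries 1 and 2 each had 31 FOXA1 peaks within 50 kb of any of the 83 genes, out of 49448 and 80318. A peak lay within 50 kb in both libraries for 17 genes (20.5%), beside 75.8% of all protein-coding genes, 52.2% of the other genes of the stretch and 86.0% of the ZNF genes on the rest of the chromosome. The peaks of the libraries were of different kinds. Of the 31 peaks, 21 (67.7%) overlapped H3K9me3 called in both libraries in library 1 and 8 (25.8%) in library 2, where 25 and 12 of the 31 lay around cluster 5. Over the whole lists 3.41% and 2.50% of FOXA1 peaks overlapped H3K9me3, while 44.7% and 51.2% of the 6.68 Mb within 50 kb of the genes lay under H3K9me3 peaks in the H3K9me3 libraries. Peaks inside H3K9me3 were weak, with median folds of 3.47 and 3.53 against list medians of 5.31 and 5.19.

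WT FOXA1 library 2 put a peak within 1 kb of the start of 10 of the 73 stranded genes (13.7%), beside 29.7% of all genes with a strand, and library 1 of 3 (4.11%), beside 10.6%. The 10 genes were ZNF554, ZNF57, ZNF414, ZNF266, ZNF121, ZNF561, ZNF823, ZNF443, ZNF564 and ZNF675. All 10 had at most 27.9% of the start window under H3K9me3 in either library, where the median over the 73 genes was 25.7% and 38.2%. ZNF414 and ZNF266 were in both lists. The other gene of library 1 was ZNF723, whose start window lay 100% under H3K9me3 in both H3K9me3 libraries. At ZNF266 the peak sits over the start (chr19:9435452-9435839) with folds of 6.94 and 8.89. None of the 8 A-Fos lists had a peak in any start window of the 73 genes, but over all genes with a strand the share was only 0.0379% to 6.13%.

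Merged over all 6 FOXA1 lists, the peaks near the genes formed 76 regions, and 66 of them were in 1 list only. The 2 regions found in all 6 lists stood far from the gene and outside H3K9me3. The region 49.3 kb from the unmarked ZNF414 (chr19:8459402-8460409) had folds of 76.1 and 106 in WT cells, 14.0 and 38.6 in A-Fos cells without doxycycline, and 32.5 and 61.5 with it. The region 37.8 kb from ZNF627 (chr19:11559060-11559669) had 54.2 and 90.0, then 5.99 and 3.88, then 9.80 and 6.81. Both had higher folds in WT cells than in either state of the A-Fos line, but folds from different lists have no common scale. Inside H3K9me3, the region 46.9 kb from ZNF737 (chr19:20482545-20483331) was called in 4 lists, with 6.68 and 19.1 in WT cells and 3.39 and 5.29 with doxycycline.

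**Figure D5:**
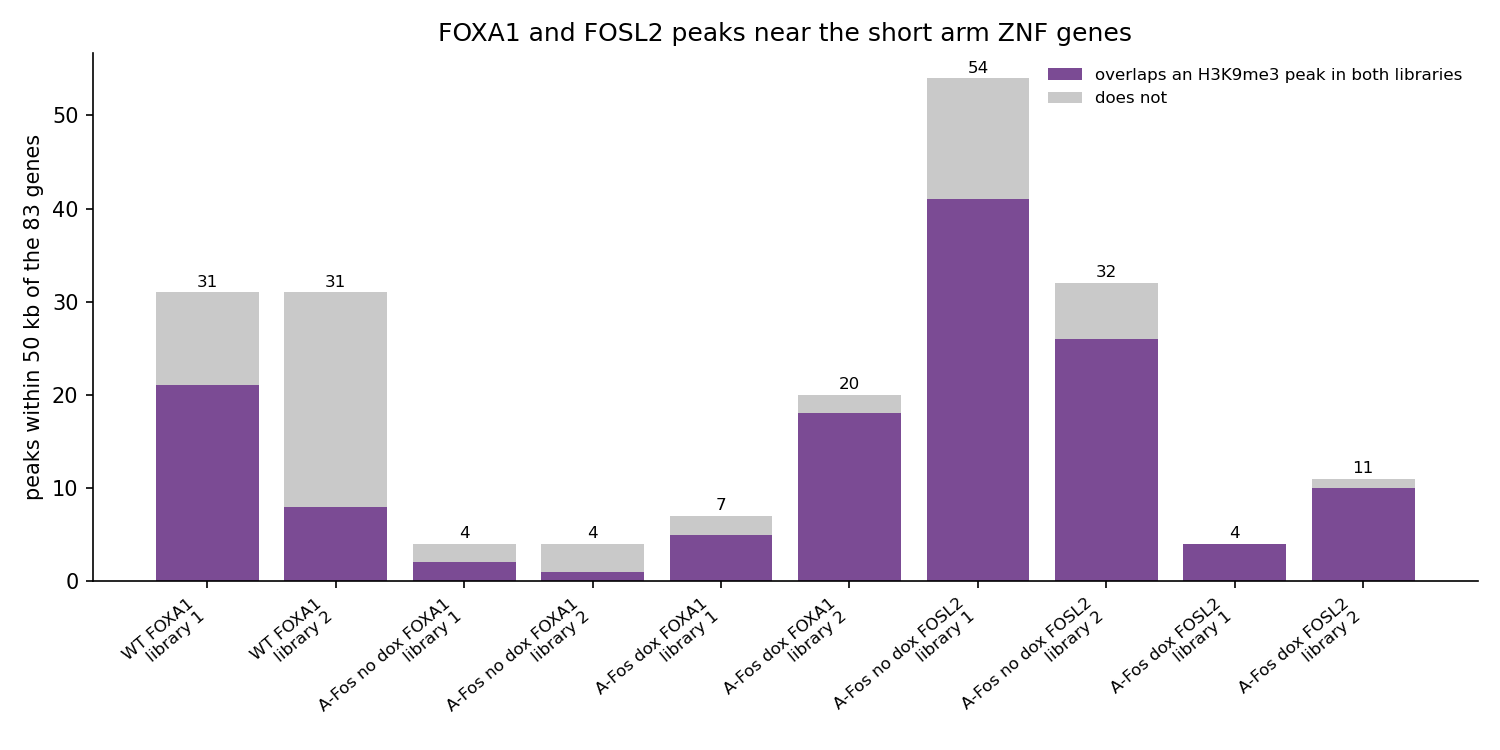
Number of FOXA1 and FOSL2 peaks within 50 kb of the 83 genes (y axis) in each of the 10 factor libraries (x axis), split by whether the peak overlaps H3K9me3 called in both libraries. FOXA1 has 31 and 31 in WT cells, 4 and 4 in A-Fos cells without doxycycline and 7 and 20 with it, and FOSL2 has 54 and 32 without and 4 and 11 with doxycycline.

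In the A-Fos line, FOXA1 peaks near the genes numbered 4 and 4 without doxycycline and 7 and 20 with it. The groups did not overlap, and the ratio of means was 3.38 (log2 1.75, means 4.00 and 13.5, SD 0 and 9.19, n = 2 each). The exact two-sided permutation test gave p = 0.33, the smallest possible, and over the whole lists the log2 ratio was 0.33 (exact permutation p = 0.667). Library 2 with doxycycline decided the size of the difference: without it the log2 ratio was 0.81, and with all 4 lists cut to their 7633 strongest peaks the counts were 4 and 1 against 5 and 3, a log2 ratio of 0.68. Within 10 kb of the genes the groups did overlap, with counts of 0 and 2 without and 1 and 8 with doxycycline. The peaks seen with doxycycline lay mostly around cluster 5, which had 5 of the 7 and 18 of the 20, and 71.4% and 90.0% of them overlapped H3K9me3. Both lists without doxycycline agreed on 2 genes with a peak within 50 kb (2.41%), beside 24.0% of all genes, and both lists with it on 7 (8.43%), beside 28.9%.

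FOSL2 peaks near the genes numbered 54 and 32 without doxycycline and 4 and 11 with it, a ratio of means of 0.174 (log2 -2.52, means 43.0 and 7.50, SD 15.6 and 4.95, n = 2 each). The groups did not overlap, and the exact two-sided permutation test gave p = 0.33, the smallest possible. The lists as a whole differed by a log2 ratio of -3.08, so the difference near the genes was no larger than over all peaks. Among peaks with −log10 q of at least 3, the counts were 35 and 16 without and 0 and 1 with doxycycline, a log2 ratio of -5.67. The whole lists were not counted at that cut, so this ratio cannot be set beside the -3.08 of the full lists. With every list cut to the 1854 peaks of highest fold, which is all of library 1 with doxycycline, the counts were 0 and 0 without and 4 and 2 with it. That cut takes different shares of lists of very different lengths. A FOSL2 peak lay within 50 kb in both lists without doxycycline for 13 genes (15.7%), beside 44.0% of all genes, and in both lists with it for 2 (2.41%), beside 3.76%.

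Most FOSL2 peaks near the genes were inside H3K9me3 and weak, with median folds of 3.78 and 3.53 without doxycycline against list medians of 6.40 and 4.50. Of the 54 and 32 peaks without doxycycline, 75.9% and 81.2% overlapped H3K9me3 called in both libraries, and 44 and 29 lay around cluster 5. With doxycycline all 4 peaks of library 1 and 10 of 11 of library 2 did, and every one was around cluster 5. Over the whole lists the shares were 4.16% and 7.70% without and 19.6% and 17.0% with doxycycline. Of 91 merged regions, 81 were in 1 list only, 8 were in both lists without doxycycline and 0 in both lists with it.

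The regions seen in both lists without doxycycline included some of ordinary strength outside the mark. The region 47.0 kb from ZNF557 (chr19:7134981-7135600) had folds of 19.9 and 8.68, and WT FOXA1 library 2 had a peak in the same place with a fold of 8.21. Around the unmarked ZNF653, a region in the gene (chr19:11496464-11496761) had 7.15 and 5.24, and a second, 30.1 kb away (chr19:11535898-11536373), had 12.4 and 7.10. In ZNF254 a region (chr19:24053914-24054974) had 21.6 and 4.95, and FOXA1 was called over it in both WT lists with folds of 7.97 and 15.0. It was the only region near the 83 genes where FOXA1 called in both WT lists met FOSL2 called in both lists without doxycycline. Inside the mark, the region 12.8 kb from ZNF726 (chr19:23957517-23958218) had 9.87 and 4.60, and that 37.4 kb from ZNF208 (chr19:21902028-21902437) had 4.37 and 3.96. None of these 6 regions was called in a list with doxycycline. The lists give no gene structure, and whether a region inside a gene is exonic or intronic was not determined here.

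Genes of the silencing machinery mostly had little of either mark, as did most genes. Of 17 genes for H3K9me3 and KRAB silencing, 13 had under 5% of the body under each mark list, beside 59.9% of all protein-coding genes, among them TRIM28, SUV39H1, CBX5 and CBX3, the HP1 genes alpha and gamma. SETDB1 had 5.26% and 9.64% H3K9me3, and ATF7IP, its partner, had 15.7% and 21.2%. ZNF274, a ZNF gene on the other arm whose protein brings SETDB1 to the 3′ ends of ZNF genes, was the only one covered, at 96.7% and 96.9%. Of 11 genes of Polycomb repressive complex 2, none was covered by either mark and 8 were below 5% in all 4 lists.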

How the data were processed

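Peaks of 14 libraries of A549 cells were analysed, with groups and replicate numbers from the sample titles; the 3 inputs were not analysed here. Each deposited peak has a fold (a ratio on a linear scale) and −log10 values of p and q, as the authors' caller wrote them. The submitters' processing notes name MACS2, BWA 2.2.1, fastp 0.23.2, SAMtools 1.8, DRAGEN and deepTools and the build hg38, with settings not given in the sources used here. Deposited −log10 q was never below 1.30. Fixation was in 1% formaldehyde for 10 min and reads were 50 bp pairs, per the labels' protocols. The sample titles call the libraries biological replicates.

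Overlapping peaks of a list were merged and the share of each gene interval (RefSeq, GRCh38.p14) under them computed with Python 3.11.15, numpy 2.4.6 and pandas 2.3.3. A gene was covered by a mark at 50% or more in both lists and unmarked under 5% in all 4. Strand came from the RefSeq promoter table. Libraries were compared with exact permutation tests, 2 against 2. Interval functions were tested on simulated data. Genes were named for the highest cover of each mark, for being the longest unmarked, for the strongest factor peaks and for standing at the ends of clusters; others are said to be chosen later or illustrate a count. The members, lists and rules were chosen with earlier results of these data known. Protein sequences were not used here.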

Additional observations from a re-analysis of the deposited data

How the results depend on the processing

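Of the 63 recomputed values of the main results, 62 met the rule set for them, and none changed sign. Part of them could not have failed. The H3K27me3 medians were 0, so stricter lists, a replicate block or a left-out library could not reverse the mark difference. Stricter lists could not raise the H3K27me3 count of 0 either. Leaving out 1 of 2 libraries always moves the shift along genes by less than 1 SD. A FOSL2 setting whose counts went the other way gave no ratio and is not among the 63. Counts were held to within 1.5 times the main count, the shift along genes to within 1 SD between libraries and the other differences to their direction alone. The exception was the number of genes covered by H3K9me3, which was 18 when 75% of the body was asked for; it was 72 at 25%, 43 with −log10 q of at least 3, 42 in the upper part of each list, 46 with lists of equal length, 66 with peaks joined across 1 kb, and 52 or 65 from a single library. No gene was covered by H3K27me3 under any of these, and 5 to 7 genes were unmarked, the same 5 each time among them under the 4 changes of the peaks. The log2 ratio for FOXA1 ran from 0.68 (lists of equal length) to 2.32, and that for FOSL2 from -5.67 (−log10 q of at least 3) to -1.97. The FOSL2 ratio could not be computed with lists of equal length. The counts there were 0 and 0 without doxycycline and 4 and 2 with it, the opposite order to the main result. Replicate numbers were not known to pair libraries: deviations of same-numbered libraries correlated at -0.104 for the marks, 0.127 for FOXA1 and -0.0383 for FOSL2. With a replicate block the mark difference was 60.9, also when the numbers were crossed (added after seeing the data), and the log2 ratios were 1.56 for FOXA1 and -2.65 for FOSL2, each with an exact sign-flip p of 0.50, the smallest that 2 pairs can give. Depth is unknown, and 2 libraries a group cannot reach p under 0.33.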

Other observations

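Other genes stand between the ZNF genes, and some shared their mark. RPSA2, which lies beside ZNF681, had H3K9me3 over 69.5% and 78.8% of its body in libraries 1 and 2. The olfactory receptor genes OR7D2 (38.1% and 50.5%), OR7E24 (26.5% and 40.7%) and OR7D4 (30.1% and 33%), between ZNF317 and ZNF699, were partly under the mark and nearly free of H3K27me3. Outside the ZNF clusters, olfactory receptor genes of the same arm were mixed. OR7A10 had H3K27me3 over 64.6% and 81.9% of its body and OR10H2 over 93.3% and 98.3%, while OR10H3 had H3K9me3 at 45.4% and 45.7% and H3K27me3 at 0% and 7.78%. OR10H4 had both, with H3K9me3 at 100% and 95.0% and H3K27me3 at 89.0% and 51.8%. The 4 other protein-coding genes inside cluster 3 had no H3K9me3 in either library. These genes were picked after their values were seen, and no test was made.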
